A study of Mus musculus with 14 samples.

Results

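Mouse neural stem cells that carried no transcript of 3 cell cycle genes, grown with BMP4 or with EGF, were compared with each other. The cells came from the subventricular zone of adult wildtype mice and were cultured with BMP4 for 3 days or with EGF for 3 days. The members were chosen by measured values: a cell was taken as non-cycling when it had 0 raw counts summed over Mki67, a protein of dividing chromatin, Top2a, the topoisomerase that untangles replicated DNA, and Cdk1, the kinase that drives mitosis. This rule kept 718 of 887 BMP4 cells and 298 of 1410 EGF cells, 1016 of the 2297 cells in all. The cultures are part of a series of 14 samples whose stated aim was to compare transcript 3′ ends between active and quiescent stem cells and between Aplp1 knockout and wildtype cells, and to map binding of CPEB4. The labels give no animal number, age, sex or passage, and each medium is represented by 1 library made by 10x Genomics 3′ capture.

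Neural stem cells of the adult subventricular zone divide in response to EGF, which acts through its receptor and the ERK kinase cascade and raises D-type cyclins. BMP ligands bind receptor kinases that phosphorylate Smad1, Smad5 and Smad9. These Smads enter the nucleus with Smad4 and switch on the Id genes and their own feedback inhibitors. In culture, BMP4 brings these cells out of the cycle into a reversible quiescence in which they take on features of astrocytes.

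The member cells summed to 13208282 counts in BMP4 and 5904998 counts in EGF, with medians of 16981 and 20163 counts and of 4097 and 4124.5 genes per cell. Mitochondrial transcripts made up a median of 9.19% of the counts of a BMP4 member and 6.85% of those of an EGF member. Members were 80.9% of the BMP4 library (exact Clopper-Pearson 95% interval 78.2 to 83.5) and 21.1% of the EGF library (19.0 to 23.4). The rule depends on depth: it kept 87.8% of BMP4 cells in the lowest quartile of depth and 67.1% in the highest, and 34.0% and 7.08% of EGF cells in those quartiles. Read on cells thinned to 4500 counts each, it kept 814 BMP4 cells and 656 EGF cells. Just outside the rule, with 1 count of the 3 genes, lay 115 BMP4 cells and 191 EGF cells. The libraries shared 1 barcode.

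Every ratio below is the summed level of BMP4 members over that of EGF members, in CPM, the count of a gene scaled to a common total. With 1 library per medium a difference has no replicate check and no p-value. Intervals in brackets are exact binomial 95% intervals of the 2 sums and cover counting error only, so they compare these libraries and not the media. Log2 ratios carry a pseudocount of 0.5 counts, and 2-fold is used as a fixed size limit. Fewer cells that express a gene and less RNA per cell cannot be told apart in a summed value, so shares of cells are given beside the main genes.

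The label was checked against cell cycle genes that the rule did not use. The G2/M list held 30 further genes of mitosis. Their share of a cell's counts had a median of 0.00898% in BMP4 members and 0.0269% in EGF members, against 0.180% in the cycling EGF cells. For 30 S phase genes the medians were 0.0226% in BMP4 members and 0.0476% in EGF members, against 0.158% in cycling EGF cells. EGF members were thus far below the cycling cells of their own library and still above BMP4 members. At 4500 counts per cell, 274 of 718 BMP4 members (38.2%) and 208 of 298 EGF members (69.8%) had a G2/M count, and 0.557% of BMP4 members and 20.8% of EGF members had 5 or more S phase counts. The EGF members are therefore described by the rule alone, as cells without the 3 transcripts, and not as cells outside the cycle.

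What remained of the G2/M program in EGF members came from few genes. Of the 2608 counts on the list in EGF members, 73.0% fell on Cenpa, Cdca3, Ube2c, Birc5, Pttg1 and Ccnb2, while 931 of the 1430 counts in BMP4 members (65.1%) were of Pttg1 alone. Cenpa, the histone H3 variant of centromeres, stood at 3.18 CPM in BMP4 members and 102 CPM in EGF members. Cdca3, which triggers entry into mitosis, stood at 2.42 and 83.5 CPM, and Ccnb2, a mitotic cyclin, at 0.833 and 25.9 CPM. In contrast Ccnb1, the other mitotic cyclin, stood at 1.74 CPM in BMP4 members and 6.27 CPM in EGF members. At equal depth 19 of 718 BMP4 members (2.65%, interval 1.60 to 4.10) and 135 of 298 EGF members (45.3%, 39.6 to 51.1) carried Cdca3, Cenpa or Ccnb2, against 20.7% of cycling BMP4 cells and 73.6% of cycling EGF cells. Pttg1, which encodes securin, the guard of sister chromatid cohesion, was the only tested gene of the list above 0, at 70.5 CPM in BMP4 members and 32.2 CPM in EGF members.

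Genes of late G2 and mitosis are repressed outside these phases by the DREAM complex and related proteins, which bind a promoter word named the CHR. The windows below show that word near the start of 4 of the residual genes, which include Ube2c, a ubiquitin enzyme of mitotic exit, 30 bases each from RefSeq promoters (250 bases before to 50 after the start), GRCm38.p6, 5′ to 3′ on the gene's strand. Capitals mark TTTGAA or its reverse complement TTCAAA.
Ccnb2, chr9:70421704-70421733, minus strand, word 167 bases before the start: cagggactagaaTTTGAAaataagactgta
Ccnb2, chr9:70421533-70421562, minus strand, word 4 bases after the start: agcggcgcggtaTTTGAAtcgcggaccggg
Cdca3, chr6:124830194-124830223, plus strand, word 30 bases after the start: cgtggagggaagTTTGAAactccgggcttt
Cenpa, chr5:30666890-30666919, plus strand, word 16 bases after the start: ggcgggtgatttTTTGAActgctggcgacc
Ube2c, chr2:164769888-164769917, plus strand, word 29 bases before the start: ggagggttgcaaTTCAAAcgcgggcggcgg
On either strand the word was present in 19 of the 27 G2/M list promoters in the table (70.4%) and 3 of 25 S phase promoters (12%). It was present in 13.7% of the 10209 tested genes with a promoter there and in 20.2% of the 27025 genes with a promoter there. Words bound by E2F factors (TTTGGCGC, TTTCCCGC, TTTCGCGC and TTTGCCGC, both strands) were present in 0 of 27 G2/M promoters, 10 of 25 S phase promoters (40%) and 4.72% of promoters of tested genes. The CCAAT word was present in 19 of 27 G2/M promoters and 43.3% of those of tested genes. Each word was counted on its own, so a promoter could hold several, and a match describes letters and not binding. Counts are per gene, so a word in any promoter of a gene counted once, and the promoters used did not cover every chromosome. Windows were also sought for Birc5, which gave none, and were not sought for Pttg1.

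**Figure D1:**
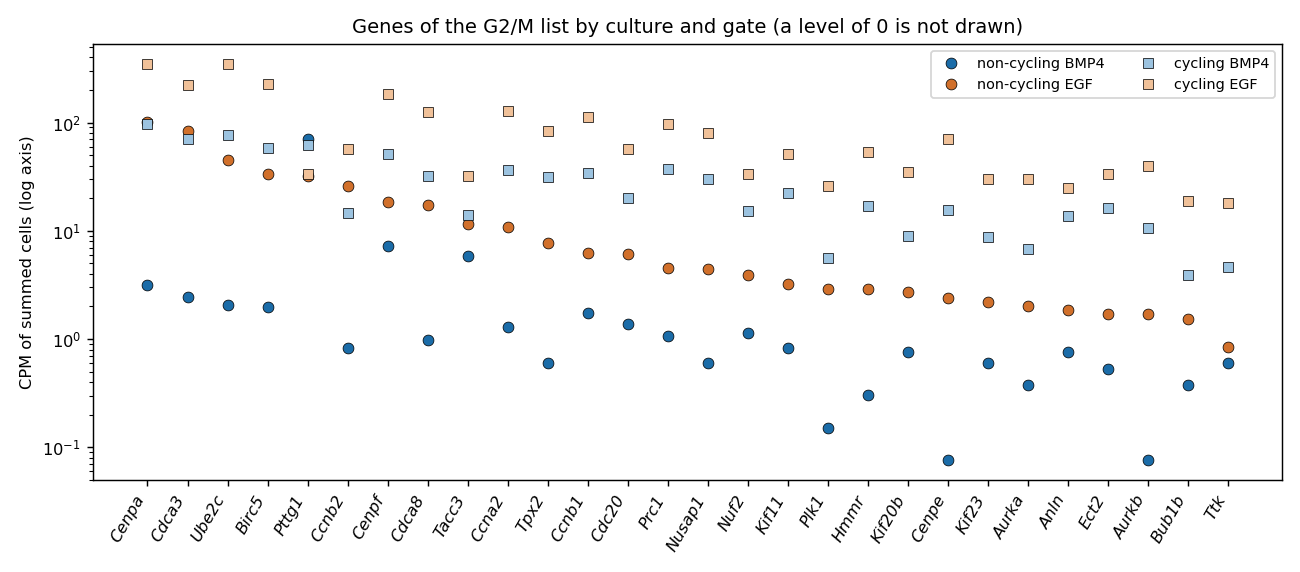
Level of each tested G2/M list gene (CPM of summed cells, log axis) in non-cycling BMP4, non-cycling EGF, cycling BMP4 and cycling EGF cells, ordered by the level in non-cycling EGF cells. Cenpa and Cdca3 lie at 102 and 83.5 CPM in non-cycling EGF cells, and Pttg1 is the only gene higher in non-cycling BMP4 than in non-cycling EGF cells.

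Because residual cycle transcripts differed between the members, a stricter set is given beside the main values. It keeps members whose summed S and G2/M share was at most the 75th percentile of BMP4 members, 0.0440% of counts, which left 538 BMP4 and 55 EGF cells and is called the matched share below. That choice used the S and G2/M genes, so their own values in it are not results.

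Of 13280 genes with 10 or more counts over the members, 2915 (22%) were 2-fold or more higher and 1574 (11.9%) 2-fold or more lower in BMP4 members, and the median log2 ratio was 0.19. Counts for the lists below are to be read beside these shares of all tested genes. At equal depth, 4500 counts per cell, 20.7% of 11242 genes were higher and 11.2% lower. Over all cells of the libraries, which include these members, 23.1% of 14499 genes were higher and 15.4% lower. Of the 3127 genes higher over all cells and tested in both, 2560 (81.9%) were also higher among members, which is 87.8% of the members' own higher genes. Of the 1775 lower over all cells, 1341 (75.5%) were also lower among members, 85.2% of the members' lower genes. TMM scaling moved every log2 ratio by -0.17 and totals without mitochondrial and ribosomal protein genes by -0.21. With those totals, 53.5% of the genes past 2-fold were higher in BMP4, against 64.9% with all counts.

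**Figure D2:**
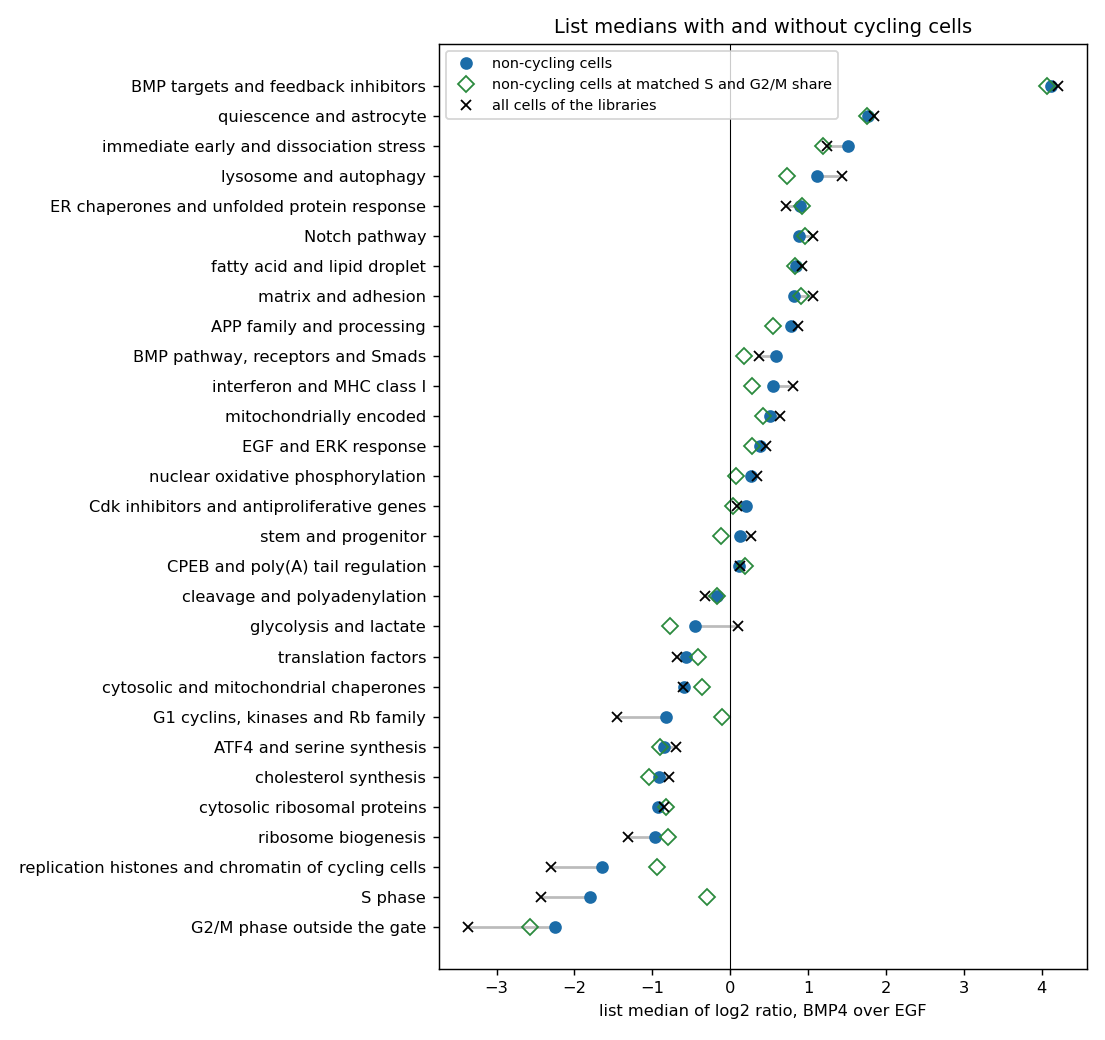
Median log2 ratio, BMP4 over EGF, of the tested genes of each pathway list in non-cycling cells (circles), in non-cycling cells at the matched S and G2/M share (diamonds) and over all cells (crosses). BMP targets stay near 4 in each set, the S phase median lies at -1.80 in non-cycling cells and -2.43 over all cells, and glycolysis lies at -0.45 in non-cycling cells and 0.10 over all cells, which becomes -0.04 with TMM scaling.

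BMP signalling separated the members by the widest margin of the lists. Of 17 tested BMP targets and feedback inhibitors, 15 were 2-fold or more higher in BMP4 members and 0 lower, with a median log2 ratio of 4.12, 4.06 at the matched share and 4.21 over all cells. The 4 Id genes encode inhibitors of basic helix-loop-helix factors. Id1 stood at 379.8 CPM in BMP4 members and 14.7 CPM in EGF members, a 25.8-fold ratio (20.9 to 32.2). Id2 stood at 1334 and 108 CPM, Id3 at 726 and 204 CPM and Id4 at 168 and 1.69 CPM. The ratio was thus highest for Id4, at 99.2-fold (53.8 to 207), and lowest for Id3, at 3.57-fold (3.36 to 3.79). At equal depth a transcript of Id1 was present in 78.4% of BMP4 and 6.71% of EGF members (97.2% and 21.1% before thinning), and of Id4 in 46.5% and 1.68% (85.8% and 3.36%).

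Feedback inhibitors were as far apart. Nog, the secreted BMP antagonist noggin, had 2509 counts in BMP4 members and 3 counts in EGF members, a 374-fold ratio of CPM (128 to 1814). Smad6, which blocks BMP receptor signalling, had 584 counts in BMP4 members and 1 count in EGF members (261-fold, 46.7 to 10329.8). Smad7, a related inhibitor, stood at 76.6 and 1.02 CPM, and Bambi, a decoy receptor, at 33.5 and 8.64 CPM. Among the other targets Fam107a had 539 counts in BMP4 members and 0 in EGF members, at least 80.3-fold higher against 3 counts in the EGF sum. Bmper and Fst, both extracellular BMP regulators, lay within 2-fold, at 14.8 and 1.59 CPM in BMP4 members and 11.9 and 2.54 CPM in EGF members. Receptors and Smads were closer together, with a median of 0.58, 0.18 at the matched share. Of 13 tested, 4 were 2-fold or more higher and 1 lower, against 22% and 11.9% of all tested genes. Higher were Smad9 (21.4 and 0.677 CPM in BMP4 and EGF members), the type I receptors Bmpr1a (250.3 and 41.3 CPM) and Acvr1 (22 and 7.11 CPM) and the type II receptor Bmpr2 (277 and 63.8 CPM). The ligand Bmp7 was lower, at 5.68 CPM in BMP4 members and 39.1 CPM in EGF members.

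The difference in BMP targets held cell by cell. Of 4500 counts drawn per cell, the 18 target genes took a median of 14 counts in BMP4 members (quartiles 11 and 18, lowest 1, highest 47) and 1 count in EGF members (quartiles 0 and 3, lowest 0, highest 11). No EGF member reached the BMP4 median, 0 of 298, which allows a share of up to 1.01%, and 11 of 298 (3.69%) reached the 5th percentile of BMP4 members. Cycling cells sat with their own culture, at medians of 13 counts in BMP4 and 1 count in EGF.

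**Figure D3:**
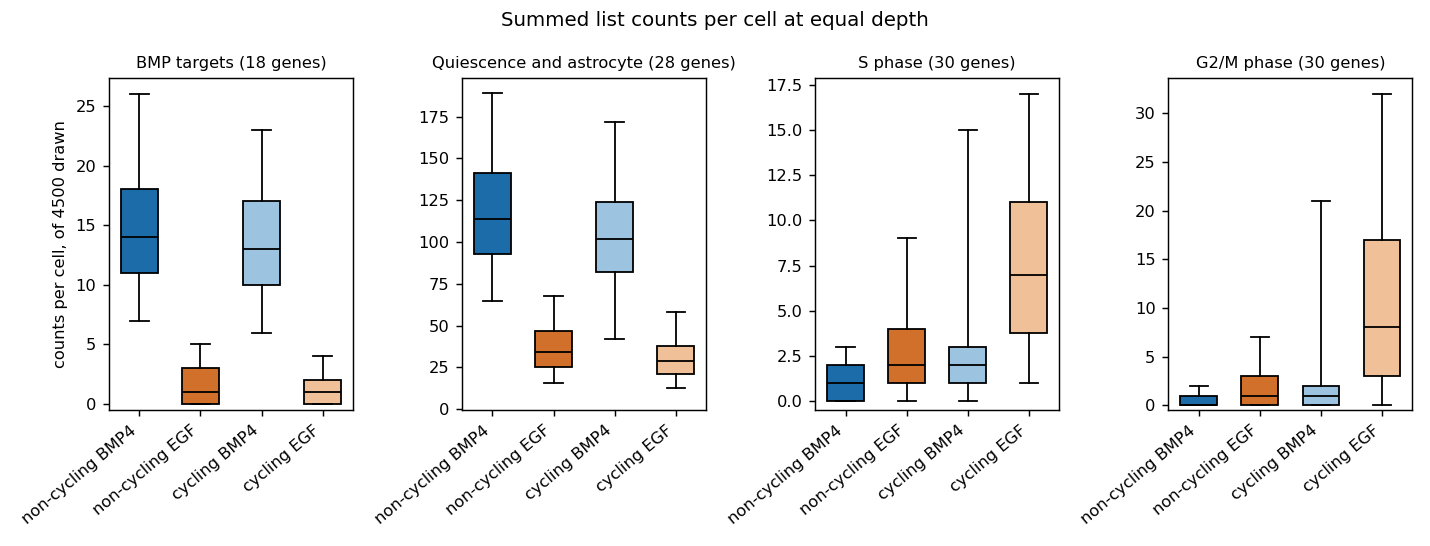
Counts per cell, of 4500 drawn, summed over the BMP target, quiescence and astrocyte, S phase and G2/M lists for non-cycling BMP4, non-cycling EGF, cycling BMP4 and cycling EGF cells; boxes give quartiles and median, whiskers the 5th and 95th percentiles. BMP targets divide the cells by culture, at medians of 14 and 13 in BMP4 against 1 and 1 in EGF, while the highest S and G2/M counts are in cycling EGF cells.

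Notch signalling, which holds neural stem cells undifferentiated through Hes and Hey repressors, was uneven. Of 19 tested genes, 9 were 2-fold or more higher and 4 lower in BMP4 members, with a median of 0.89. Among targets Hes5 stood at 239 CPM in BMP4 members and 21.7 CPM in EGF members, Hey1 at 185 and 15.4 CPM and Hes1 at 364 and 119.6 CPM. The ligand Jag1 stood at 166 and 20.5 CPM, whereas the ligand Dll1 stood at 4.09 and 14.2 CPM. The ligands thus differed in direction. Mfng, a glycosyltransferase that modifies Notch, had 1 count in BMP4 members and 40 counts in EGF members. Among receptors Notch1 and Notch3 were higher in BMP4 members (log2 ratio 1.39 and 1.53), and Notch2 lay within 2-fold at -0.34. Hey1 is also a BMP target and was counted in both lists, as Smad9 was among BMP targets and pathway genes.

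Quiescence and astrocyte genes were the second highest of the pathway lists, with 18 of 27 tested genes 2-fold or more higher, 1 lower, and a median of 1.77, 1.76 at the matched share and 1.85 over all cells. Aqp4, the water channel of astrocyte endfeet, had 10717 counts in BMP4 members and 7 in EGF members, a 684-fold ratio of CPM (332 to 1703). At equal depth it was present in 78.1% of BMP4 members and 0 of 298 EGF members, which allows up to 1.01% of EGF members to have a count at that depth and sets no limit on cells that express the gene (90.9% and 1.34% had a count before thinning). Gfap, the astrocyte intermediate filament, had 528 counts in BMP4 members and 0 in EGF members, at least 78.7-fold higher against 3 counts, yet was present in 14.3% of BMP4 members at equal depth and 35.1% before thinning. Gfap transcript was therefore detected in a minority of the BMP4 members. Slc1a2, a glutamate transporter, stood at 732 CPM in BMP4 and 31.5 CPM in EGF members and was present in 91.2% and 12.4% of them at equal depth (99.4% and 36.9% before). Slc1a3, another glutamate transporter, stood at 1208 and 404 CPM. S100b stood at 354 and 15.2 CPM and Apoe, a lipid carrier, at 959 and 76.2 CPM, although 18% of the 450 Apoe counts of EGF members lay in 1 cell. Sox9, Aldh1l1 and Nfib did not follow the list, with log2 ratios of -0.31, -0.73 and -1.03. Per cell at equal depth the 28 genes took a median of 114 counts in BMP4 members (quartiles 93 and 141, lowest 15, highest 304) and 34 in EGF members (quartiles 25 and 47, lowest 8, highest 101). The groups overlapped at their ends, and 21 of 298 EGF members (7.05%) reached the 5th percentile of BMP4 members. Cycling cells sat near the members of their own culture, at medians of 102 counts in BMP4 and 29 counts in EGF. Of the cycling BMP4 cells, 85.8% reached that percentile. Between cycling cells of the 2 cultures the list median was 1.95, so the difference was not particular to the members.

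Stem and progenitor genes showed no common direction. Of 19 tested, 7 were 2-fold or more higher and 5 lower, and the median of 0.13 turned to -0.04 with TMM scaling and to -0.12 at the matched share. Pax6, a transcription factor of neurogenic progenitors, stood at 87.5 CPM in BMP4 members and 14.6 CPM in EGF members. For Pax6 the log2 ratio was 2.58 among members and 1.47 over all cells. Nes, the intermediate filament nestin, was 25.4-fold lower (20.7 to 31.5), at 7.5 CPM in BMP4 members and 190.3 CPM in EGF members, and was present in 3.76% and 57.7% of cells at equal depth (11.1% and 93.6% before). Vim stood at 413 and 1283 CPM, Egfr, the receptor for EGF, at 16 and 85.4 CPM, and Olig2 at 149 and 394 CPM. These 4 genes were lower in BMP4 members with and without cycling cells (log2 over all cells -4.40, -1.16, -2.21 and -1.23).

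The EGF and ERK response list was also divided, with a median of 0.39. Of 20 tested genes, 3 were higher and 5 lower, against 22% and 11.9% of all tested genes. Emp1, Hbegf and Spry1 were higher, and of these Hbegf, an EGF family ligand, stood at 145 CPM in BMP4 members and 34.2 CPM in EGF members. Spry1 and Spry4, both feedback inhibitors of ERK signalling, had log2 ratios of 1.43 and -0.81. Myc stood at 9.54 CPM in BMP4 members and 37.8 CPM in EGF members, Phlda1 at 19.3 and 99.2 CPM and Ier3 at 15.1 and 63.2 CPM. Areg and Ccnd1 were the other lower genes, and Ccnd1 is described with the cyclins. Dusp6, a phosphatase that turns ERK off, differed little, at 216 and 197 CPM.

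In the list of G1 cyclins, kinases and the Rb family, 7 of 17 tested genes were 2-fold or more lower and 3 higher, and its median was -0.83 among members, -1.45 over all cells and -0.10 at the matched share. The matched cells were chosen for few S and G2/M transcripts, and this list also holds cell cycle genes. The move of its median toward 0 there is therefore not read as a result. Ccnd1 and Ccnd2 stayed past 2-fold at the matched share. Ccnd1, cyclin D1, was 42.1-fold lower (37.8 to 47.1), at 25.8 CPM in BMP4 members and 1088 CPM in EGF members. Ccnd2, cyclin D2, was 3.02-fold higher (2.95 to 3.1), at 4212 CPM in BMP4 members and 1393 CPM in EGF members, and Ccnd3 stood at 77.1 and 82.5 CPM. At the matched share the log2 ratios were -5.92 for Ccnd1 and 1.25 for Ccnd2. A Ccnd1 transcript was present in 6.69% of BMP4 and 97.3% of EGF members at equal depth (19.6% and 100.0% before), and a Ccnd2 transcript in 99.7% and 95.6% (100.0% and 100.0% before). Cdk4, the kinase partner of D cyclins, stood at 149 and 536 CPM, while Cdk6, its relative, stood at 21.1 and 24.6 CPM. Rb1, the retinoblastoma protein that D cyclins inactivate, was 3.71-fold higher (2.74 to 5.13), at 29.5 CPM in BMP4 members and 7.96 CPM in EGF members, and its relative Rbl2 stood at 16.8 and 6.77 CPM. Cyclin E genes Ccne1 and Ccne2 stood at 3.26 and 3.63 CPM in BMP4 members and 21.5 and 8.47 CPM in EGF members. At the matched share Ccne2 had a log2 ratio of 0.97. That value rests on very few counts, since all EGF members together had 50 Ccne2 counts and the matched share kept 55 EGF cells. Those cells were also chosen for few S and G2/M transcripts, so no change of direction is read from it. Cdk2, the kinase of cyclin E, was -1.45 on the log2 scale over all cells and -0.45 among members.

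Cdk inhibitors and antiproliferative genes had a median of 0.20, against 0.19 over all genes. Of 20 tested genes, 3 were higher and 3 lower, against 22% and 11.9% of all tested genes. The list median was -0.01 with totals without mitochondrial and ribosomal protein genes. Cdkn1a, the inhibitor p21, stood at 436 CPM in BMP4 members and 407 CPM in EGF members. Cdkn1b, the inhibitor p27, stood at 41.9 and 21.5 CPM, a log2 ratio of 0.96 that was 0.40 over all cells. For Cdkn2c and Cdkn2d, inhibitors of Cdk4 and Cdk6, the log2 ratios were 0.26 and 0.14 among members and -0.90 and -0.75 over all cells, but with TMM scaling Cdkn2d was -0.03 among members, so the side of Cdkn2d depended on the scaling. Gadd45b and Gadd45g, stress-induced growth arrest genes, were higher at 22.3 and 144 CPM in BMP4 members, against 1.35 and 42.3 CPM in EGF members. Gas1, a membrane protein of growth arrest in fibroblasts, was lower, at 34.7 CPM in BMP4 members and 129 CPM in EGF members.

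S phase genes had a median of -1.80 among members and -2.43 over all cells, with 23 of 30 tested genes 2-fold or more lower and 0 higher. For G2/M genes the medians were -2.24 and -3.36, with 25 of 28 lower and 1 higher. Uhrf1, which maintains DNA methylation at replication, stood at 1.74 CPM in BMP4 members and 22.5 CPM in EGF members, and Mcm6, a subunit of the replicative helicase, at 2.2 and 18.3 CPM. A few S phase genes no longer differed by 1.5-fold once cycling cells were removed. These were Rrm1, a subunit of ribonucleotide reductase (12.5 and 12.5 CPM in BMP4 and EGF members; log2 -1.05 over all cells), Pola1, a DNA polymerase subunit (7.34 and 5.25 CPM; -1.03 over all cells), and Slbp, which binds histone mRNA (35.7 and 51.5 CPM; -1.11 over all cells). Chromatin and tubulin genes of cycling cells had a median of -1.64, with 18 of 21 lower and 0 higher, and -0.94 at the matched share. The widest shift toward BMP4 on removing cycling cells was that of Smc4, a condensin subunit, with a log2 ratio of -0.37 among members and -2.22 over all cells. Hmgb2, a chromatin protein, stood at -1.96 and -3.56, and Dek at -0.15 and -1.43. Stmn1, the microtubule regulator stathmin, kept a log2 ratio of -3.57 among members, -3.20 at the matched share and -3.26 over all cells, and H2afz, a histone H2A variant, stood at 332 CPM in BMP4 members and 1953 CPM in EGF members.

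**Figure D4:**
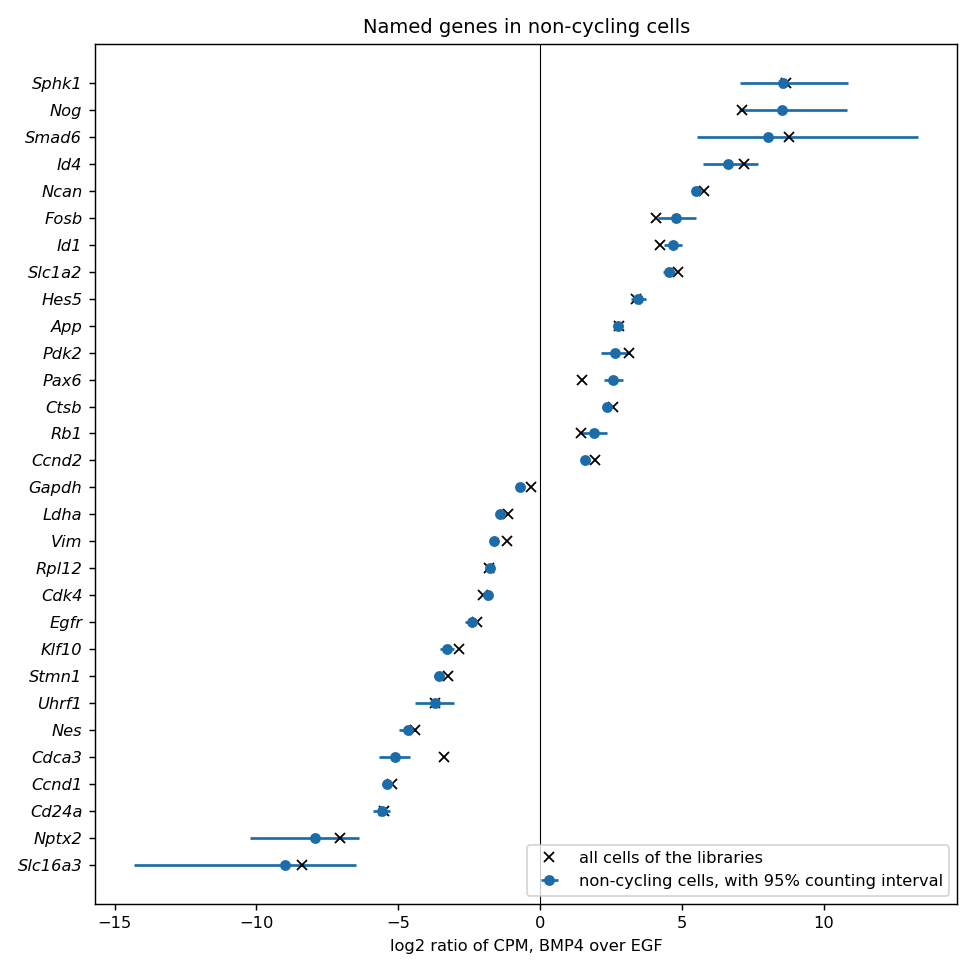
Log2 ratio of CPM, BMP4 over EGF, of genes named in the text, in non-cycling cells (circles, no pseudocount, bars are 95% counting intervals) and over all cells (crosses, pseudocount 0.5 counts). In non-cycling cells Ccnd1 lies on the far lower side and Ccnd2, at 1.60, on the higher, and Cdca3 and Pax6 lie further from 0 in non-cycling cells than over all cells.

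Transcripts of the translation machinery were lower in BMP4 members. Of 77 cytosolic ribosomal protein genes, 26 were 2-fold or more lower and 0 higher, with a median log2 ratio of -0.93, -0.82 at the matched share and -0.85 over all cells. Their summed level was 151059 CPM in BMP4 members and 278914 CPM in EGF members. Rpl12 was lowest at -1.76. Per cell at equal depth these genes took a median of 657.5 counts in BMP4 members (quartiles 576 and 775) and 1256 in EGF members (quartiles 1132.5 and 1396.75). Ribosome biogenesis had a median of -0.96 among members and -1.31 over all cells. Of its 26 tested genes, 13 were lower and 0 higher among members, and 18 were lower over all cells. The nucleolar proteins Npm1 (406 CPM in BMP4 and 1328 CPM in EGF members) and Nop56 (23.2 and 75 CPM) were among the 13. Translation factors had a median of -0.56 among members and -0.69 over all cells. Of 26 tested, 7 were lower and 1 higher, against 11.9% and 22% of all tested genes. The lowest was Eif4ebp1, which restrains cap-dependent initiation, at 38.5 CPM in BMP4 members and 235 CPM in EGF members. The highest was Eif4a2, an initiation helicase, at 317 and 136 CPM, while its relative Eif4a1 stood at 252 and 579.7 CPM.

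Metabolic lists took different directions. Fatty acid and lipid droplet genes had a median of 0.84, with 12 of 26 tested genes higher and 0 lower. Cidea, a lipid droplet protein, had 4968 counts in BMP4 members and 0 in EGF members, at least 740.3-fold higher against 3 counts, and was present in 69.2% of BMP4 members and 0 of 298 EGF members at equal depth (93.3% and 0% before). Cpt1a, which carries fatty acids into mitochondria for oxidation, stood at 33.5 CPM in BMP4 members and 8.3 CPM in EGF members. Fasn, fatty acid synthase, stood at 70.03 and 62.5 CPM. Cholesterol synthesis had a median of -0.91, with 9 of 22 lower and 0 higher. Fdps and Sqle, enzymes of the sterol path, stood at 39.1 and 54.7 CPM in BMP4 members and 149 and 149 CPM in EGF members, while Hmgcs1, an early enzyme, stood at 311 and 303 CPM.

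Glycolysis genes lay lower among members than over all cells. Their median log2 ratio was -0.45 among members, -0.78 at the matched share and 0.10 over all cells, where TMM scaling turned it to -0.04 (-0.62 among members), with 5 of 24 tested genes higher and 6 lower among members. Gapdh had a log2 ratio of -0.72 among members and -0.33 over all cells, Pgk1 of -0.25 and 0.25, and Eno1 of -0.08 and 0.34. Some of these EGF sums leaned on few cells. The 10 highest EGF members held 18.4% of the Gapdh and 20.6% of the Eno1 counts, against 8.44% for Cox4i1, an oxidative phosphorylation gene. In BMP4 members the 10 highest cells held 4.91% of the Gapdh, 6.58% of the Eno1 and 3.74% of the Cox4i1 counts. Since 10 cells are a smaller part of 718 BMP4 members than of 298 EGF members, these shares cannot be compared directly between cultures. How far the highest cells set the list median was not tested. Within the EGF library, non-cycling cells were above cycling cells in 22 of the 24 genes, with a median log2 ratio of 0.48, against 48.6% of the 13280 tested genes and a median of -0.01. Since the rule divides those cells, this is a description. Isoforms differed within the pathway. Pfkm, a phosphofructokinase, stood at 101 CPM in BMP4 members and 19.1 CPM in EGF members, and its relative Pfkl at 32.8 and 49.4 CPM. Pdk2 and Pdk1, kinases that shut off pyruvate dehydrogenase, went opposite ways, with Pdk2 at 35.9 and 5.76 CPM and Pdk1 at 12.4 and 49.96 CPM. Ldhb and Ldha, the lactate dehydrogenase subunits, did so too, with Ldhb at 260.3 and 115 CPM and Ldha at 300.1 and 796 CPM. Slc16a3, the lactate exporter MCT4, had 1 count in BMP4 members and 229 counts in EGF members (512-fold lower, 91 to 20319). Hk2, a hexokinase, was lower as well, at 6.81 CPM in BMP4 members and 37.1 CPM in EGF members.

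Nuclear genes of oxidative phosphorylation lay closer to 0, with a median of 0.26 (0.07 at the matched share), 2 of 32 higher and 0 lower, and the 13 mitochondrially encoded genes had a median of 0.51 with none past 2-fold. ATF4 and serine synthesis genes had a median of -0.85, with 9 of 21 tested genes lower and 1 higher. The serine synthesis enzymes Phgdh, Psat1 and Psph stood at 45.6, 49.7 and 34.3 CPM in BMP4 members and 162, 193 and 54.5 CPM in EGF members. Atf4 itself stood at 151 and 152 CPM. The higher gene was Slc3a2, an amino acid transporter chain, at 128 CPM in BMP4 members and 59.4 CPM in EGF members.

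Lysosome and autophagy genes were higher in BMP4 members, 14 of 26 tested by 2-fold or more and 0 lower, with a median of 1.11 that was 0.73 at the matched share and 1.43 over all cells. The proteases Ctsb and Ctsd stood at 204 and 360.2 CPM in BMP4 members and 39.6 and 80.3 CPM in EGF members. Tfeb, a transcription factor of lysosome genes, stood at 8.71 and 2.2 CPM. ER chaperones had a median of 0.90, with 7 of 20 higher and 0 lower. Hspa5, the ER chaperone BiP, stood at 271 CPM in BMP4 members and 111 CPM in EGF members, and Dnajb9, its cofactor, at 72.2 and 18.1 CPM. Cytosolic and mitochondrial chaperones had a median of -0.59, with 3 of 20 higher and 3 lower, against 22% and 11.9% of all tested genes. The 3 higher were the small heat shock protein Hspb8 (166 CPM in BMP4 and 1.02 CPM in EGF members), its partner Bag3 (48.2 and 7.11 CPM) and the small heat shock protein Hspb1, with 49 counts in BMP4 members and 4 in EGF members, while the subunits of the chaperonin TRiC that passed 2-fold were lower, with Tcp1 at 88.7 and 209.7 CPM.

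Immediate early genes, which also respond to dissociation of cells, had a median of 1.51, with 13 of 23 tested genes higher and 2 lower. Fos stood at 628 CPM in BMP4 members and 66.2 CPM in EGF members and was present in 83.3% and 21.1% of cells at equal depth (96.2% and 49% before). Fosb stood at 94.3 and 3.39 CPM and Egr1 at 268 and 150.0 CPM. Klf10, an early gene of the TGF-beta response, went the other way, at 11.9 CPM in BMP4 members and 115 CPM in EGF members. How far cell handling took part in these values was not tested. Interferon and MHC class I genes had a median of 0.55. Of 14 tested, 5 were higher and 1 lower, against 22% and 11.9% of all tested genes. Ifitm3, an interferon-induced membrane protein, stood at 50.4 CPM in BMP4 members and 155 CPM in EGF members.

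Matrix and adhesion genes had a median of 0.82, with 11 of 24 tested genes higher and 3 lower. Ncan, the proteoglycan neurocan, had 213695 counts in BMP4 members, or 16179 CPM, against 356 CPM in EGF members, a 45.4-fold ratio (43.5 to 47.4), and all 718 BMP4 members carried it at equal depth. Bcan and Tnr, brain matrix proteins, stood at 965 and 73.8 CPM in BMP4 members and 149 and 3.22 CPM in EGF members. Vcam1, an adhesion molecule of quiescent stem cells in the niche, stood at 28.4 and 2.71 CPM. Lamb1 and Col4a1, basement membrane proteins, were lower, at 1.44 and 5.83 CPM in BMP4 members and 7.28 and 15.2 CPM in EGF members.

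For gene families named in the design of the series, the members gave mixed values. Of 18 APP family and processing genes, 7 were higher and 0 lower, with a median of 0.79. App, the amyloid precursor protein, was 6.69-fold higher (6 to 7.48), at 398 CPM in BMP4 members and 59.4 CPM in EGF members. Its relatives Aplp1 and Aplp2 lay within 2-fold, at 23.8 and 220.3 CPM in BMP4 members and 20.3 and 134 CPM in EGF members, and Aplp1 had a log2 ratio of -0.80 at the matched share. CPEB and poly(A) tail genes had a median of 0.12, which became -0.05 with TMM scaling. Of 29 tested, 4 were higher and 2 lower, against 22% and 11.9% of all tested genes. Cpeb2 and Cpeb3 stood at 35.7 and 22.2 CPM in BMP4 members and 9.31 and 3.22 CPM in EGF members. Cpeb4 stood at 44.1 and 29.8 CPM. Cpeb1 was 1.02 on the log2 scale over all cells and 0.11 among members. Cleavage and polyadenylation genes, which set 3′ ends, had a median of -0.16, with 1 of 24 higher and 2 lower. The higher was Pcf11, a termination factor, at 45.3 CPM in BMP4 members and 16.1 CPM in EGF members. Nudt21, a cleavage factor whose loss favours proximal sites, was lower, at 54.7 and 173 CPM.

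Across all genes with 300 or more counts, the 8 highest ratios were those of Cidea, Aqp4, Sphk1, Nog, Caln1, Spock1, Npy and Smad6 when a gene with 0 counts in EGF members was placed at its bound against 3 counts. Since a bound is a lower limit, genes with 0 EGF counts outside these 8, such as Gfap, could lie higher. Sphk1, which makes sphingosine 1-phosphate, had 2569 counts in BMP4 members and 3 in EGF members (383-fold, 131 to 1858). Caln1, a calcium-binding protein, had 2128 counts in BMP4 members and 0 in EGF members, at least 317-fold higher. Npy, the neuropeptide, had 625 counts in BMP4 members and 1 in EGF members, and 39.5% of the counts lay in 10 cells. The 8 lowest were Nptx2, Trp53i11, Adm, Nrgn, Cd24a, Ptgds, Ccnd1 and Bok. Nptx2, a neuronal pentraxin, had 3 counts in BMP4 members and 330 in EGF members (246-fold lower, 83.5 to 1199), and Trp53i11 had 47 and 2724 counts (129.6-fold lower, 97.2 to 177). Adm, the peptide adrenomedullin, stood at 0.984 CPM in BMP4 members and 81.8 CPM in EGF members. Cd24a, a surface protein used to sort neuroblasts and progenitors, stood at 6.81 and 327 CPM and was present in 2.65% of BMP4 and 71.1% of EGF members at equal depth (9.05% and 94% before).

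**Figure D5:**
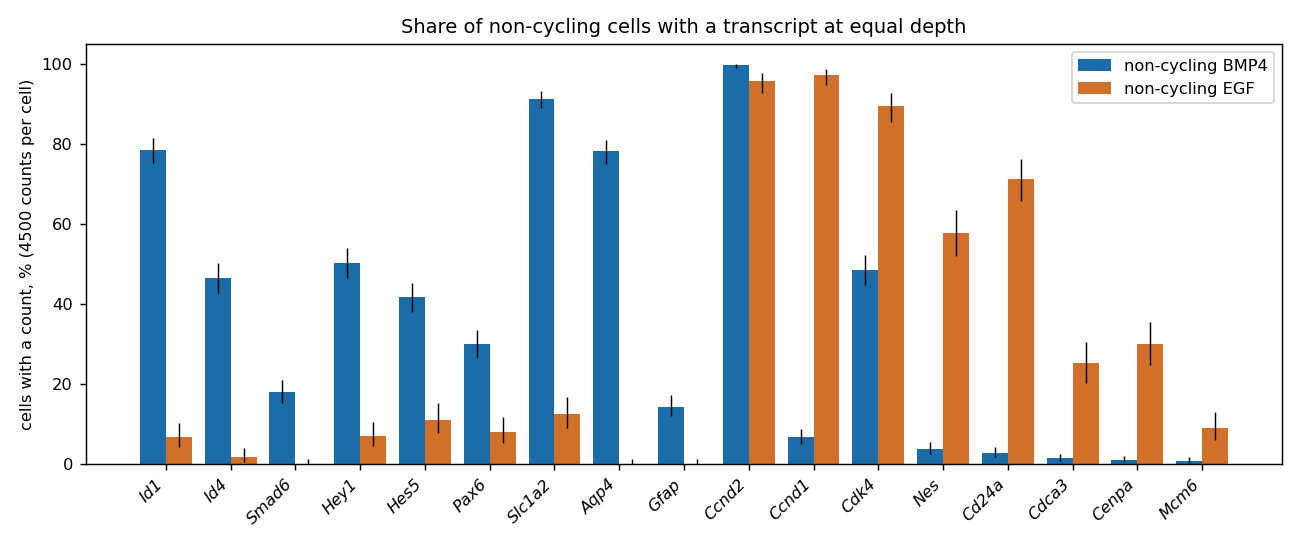
Share of non-cycling cells with a count of each gene after thinning to 4500 counts per cell (bars from 0; error bars are exact 95% intervals), BMP4 left and EGF right of each pair. Ccnd2 is present in nearly all cells of both cultures, Ccnd1 in 6.69% of BMP4 and 97.3% of EGF members, and Gfap in 14.3% of BMP4 members.

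Markers of other cell types ranged from near 0 to well detected. Among 13 microglial markers Cx3cr1, Csf1r, Aif1, C1qa, C1qb, C1qc, Tyrobp, Ptprc and Ctss had 0 counts in both sums, and their list summed to 4.32 CPM in BMP4 members and 4.57 CPM in EGF members. The endothelial list summed to 6.13 and 2.88 CPM, the mural and fibroblast list to 21.3 and 4.91 CPM and the ependymal list to 27.9 and 37.9 CPM. Of the mural and fibroblast genes, Tagln alone stood at 20.2 CPM in BMP4 members and 1.35 CPM in EGF members. Acta2 went the other way, with 4 counts in BMP4 members and 19 in EGF members, 10 of these in 1 cell. Neuroblast markers summed to 352 CPM in BMP4 members and 981 CPM in EGF members, with 2 of 10 tested genes higher and 5 lower, but Dcx, the defining marker, had 5 and 6 counts, and Sox4, Sox11 and Cd24a carried most of the sums. Mature neuron markers had 0 of 5 higher and 3 lower, with sums of 230.4 CPM in BMP4 and 361 CPM in EGF members. Map2 carried most of both sums, with 2952 counts in BMP4 members and 2009 in EGF members. Oligodendrocyte precursor genes summed to 1758 CPM in BMP4 members and 1674 CPM in EGF members, with 1 of 6 higher and 3 lower, Olig1 at 1503 and 1199 CPM and Pdgfra at 4 counts in BMP4 and 4 counts in EGF members. What part cells of these kinds had in the values above was not tested.

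Several genes of the oligodendrocyte list, but not all, rested on 1 cell. The list had a median log2 ratio of 3.06, with 6 of 7 tested genes higher. A single BMP4 member with 43673 counts held 393 of the 407 counts of Mbp, a major myelin protein, all 34 of Mobp, all 13 of Ermn and 14 of 15 of Cldn11. Of Cnp, also on the list, it held 36 of 637 counts. The same cell held 88 of the 341 Ccnd1 counts of BMP4 members and 19 of the 213695 Ncan counts. Without it, a choice made after seeing the data, the list median was 1.38, Mbp had 14 counts, and Ccnd1 was -5.82 on the log2 scale in place of -5.39.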

How the data were processed

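Per the labels, the BMP4 and EGF cultures were captured by 10x Genomics 3′ chemistry with oligo(dT). The authors deposited whole-number counts per gene and cell, used here as they stand for 27998 genes, of which 98.7% were paired with a symbol through a gene name table. Per the submitters' processing notes, the build was mm10 and the tools were Cell Ranger, Bowtie2 and SAMtools; for versions, roles, annotation, strand setting and any filter on cells or doublets the entry is the same, not given in the sources used here. Of the deposited tables, 4 others were not used.

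Counts of member cells were summed per library, and genes with 10 or more counts over both sums were compared as CPM with a pseudocount of 0.5 counts. No test was possible with 1 library per medium. Ratios carry exact conditional binomial intervals and shares carry Clopper-Pearson intervals, at 95%, which cover counting error only; a count of 0 is bounded by 3 counts. Cells were thinned without replacement to 4500 counts (seed 20240), which left out no cell. No cell was removed, doublets and free RNA were not treated, and cells were not clustered. The cultures held no known second cell type as a gauge of free RNA, whose level was not measured here. The ratios and intervals were tested on simulated sums of independent counts, the case for which such intervals are built. No cells were simulated, so an uneven spread of counts over cells was not covered. Promoters came from the RefSeq table of GRCm38.p6.

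Members and all 37 gene lists, of which 8 hold markers of other cell types, were chosen with earlier results of these data known. Named genes were the 8 largest ratios each way with 300 or more counts, the 8 with the widest difference from all cells each way, and in each list the 2 largest each way past 2-fold with 30 or more counts and those within 1.5-fold that had passed 2-fold over all cells; other list members named for contrast were chosen after their values were seen. Some genes that this rule names are not reported here. Predicted genes and pseudogenes were passed over. The alternatives were 14 planned changes of depth, gate, scaling, filter and pseudocount and 1 added later. Python 3.11.15, numpy 2.4.6, pandas 2.3.3, scipy 1.17.1, matplotlib 3.10.9 and, for TMM factors, edgeR 4.0.16 were used.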

Additional observations from a re-analysis of the deposited data

How the results depend on the processing

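Genes 2-fold or more higher in BMP4 members numbered 1789 to 3889 over the 15 alternatives and genes 2-fold or more lower 1007 to 2777. As shares of the genes tested, the higher genes were 17.9% to 23.0% and the lower genes 9.25% to 20.2%. The number higher was 1789, against 2915, when members also had 0 counts over the G2/M list, which left 150 BMP4 and 8 EGF cells. Of the 9769 genes tested there 18.3% were higher and 20.2% lower, against 22% and 11.9% of 13280. Of the genes past 2-fold there, 47.6% were higher in BMP4, against 64.9%. The number lower was 1007 with 50 or more counts and 2777 with no filter, against 1574; fewer or more genes were tested under these filters. With 8 EGF cells several directions reversed: the S phase list median was 0.14, and the log2 ratios were -0.29 for Hey2, -0.29 for Emp1, 0.74 for Ccng2, -0.21 for Eif4a2, -0.25 for Ndufs1 and -0.79 for Lhfpl3. At the matched share (538 and 55 cells) Hells, a chromatin remodeler of replication, was 0.29, but Hells is on the S phase list that chose those cells, so this value is not a result. Without a filter the endothelial list median was -1.16. Except where the number of cells or genes is given, the cause was not tested. Of the other values, 1488 gene values lay within the counting interval of the reported ratio and 512 list medians within 1.5-fold of the reported median. Values near 0 could change sign within these limits, as the stem and progenitor and the CPEB list medians did with TMM scaling. The 1488 include gene values under the changed filters. A filter alters which genes are tested and not their ratios, so those gene values matched by construction and say nothing about stability. The remaining 301 gene values and 38 list values moved further, and those of them reported past 2-fold kept their direction. Depth limits genes near 0.227 CPM in BMP4 and 0.508 CPM in EGF members, the level of 3 counts, and 298 EGF cells limit every ratio. No paired analysis was possible because each culture is 1 library and the labels give no replicate numbers for them.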

Other observations

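Some genes without a list also differed between the members. Gja3, a connexin, and Inpp5j, an inositol phosphatase, had 583 and 1188 counts in BMP4 members and 0 counts in EGF members, at least 86.9-fold and 177-fold higher against 3 counts, and both were also at 0 in cycling EGF cells. Their levels in cycling BMP4 cells, 45.8 and 88.7 CPM, were close to the 44.1 and 89.9 CPM of BMP4 members. Gbx2, a homeobox factor, stood at 44.9 CPM in BMP4 members (593 counts) and 0.508 CPM in EGF members (3 counts). That is an 88.4-fold ratio (30.1 to 430). Its log2 ratio was 6.24 among members, which rests on those 3 counts, and 4.93 over all cells. Fzr1, the activator of the anaphase-promoting complex in G1, had a log2 ratio of 0.58 among members and -0.60 over all cells.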
